A study of Bos taurus with 15 samples.

Results

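The 48 genes described here run the cell division cycle: 15 act in DNA replication, 9 in the passage from G1 into S phase, 2 are checkpoint kinases and 22 act in mitosis. They were taken by symbol from a fixed list, all 48 were found among the 17259 genes of the count table, and 47 of them passed the filter on low counts together with 11578 genes in all. CCND1 was the member that did not pass. The study sequenced poly(A) RNA of day 7 blastocysts of cattle (Bos taurus), with 3 groups and 5 libraries in each. The automatic group came from zygotes whose cumulus cells, the follicle cells around the egg, were stripped off by automated denudation. The manual group came from zygotes denuded by hand. Both in vitro groups were then cultured in SOF (synthetic oviduct fluid) medium for 7 days. The in vivo group consisted of blastocysts collected from animals at the same day, with no denudation or culture step given. The labels call the cell type blastomera in every group, and the design text counts 5 blastocysts per group. No label ties libraries to separate donors, cultures or collection days. The p-values therefore cover the spread among the libraries, part of which may be technical.

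Before S phase, the origin recognition complex, CDC6 and CDT1 load the MCM helicase onto DNA, and geminin blocks CDT1 afterwards so that each origin fires no more than once per cycle. Cyclin D and cyclin E with their kinases drive entry into S phase through the E2F factors. Cyclin A and cyclin B with CDK1 drive mitosis, in which Aurora and Polo kinases build the spindle and the BUB and MAD proteins delay separation until all chromosomes are attached. Cleaving embryos divide with little growth between divisions, and the embryo at the blastocyst stage is still dividing in both the trophectoderm, its outer layer, and the inner cell mass.

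The libraries held between 17.96 M and 41.97 M estimated counts (M for 1000000). Between 6977 and 12611 genes had 10 or more counts, and 5 libraries had fewer than 9000 of them. These low-detection libraries were numbers 2 and 4 of the automatic group, numbers 2 and 4 of the in vivo group and number 2 of the manual group. Mitochondrial transcripts took 8.18% to 14.4% of the counts in those 5 libraries and 3.26% to 9.99% in the other 10. Markers of all 3 lineages of the blastocyst were present: GATA3, KRT8 and KRT18 for trophectoderm, POU5F1 and NANOG for epiblast and GATA6 and PDGFRA for hypoblast had counts in all 15 libraries. EOMES, SOX17 and GATA4 averaged under 1 CPM in every group, where CPM is counts per 1000000 after TMM scaling. ELF5 averaged 0.0159 CPM in automatic, 0.185 CPM in manual and 5.44 CPM in in vivo libraries. The 11 trophectoderm markers measured summed to 9565 ± 3516 CPM in automatic, 16843 ± 10784 CPM in manual and 24156 ± 6496 CPM in in vivo libraries (SD, n = 5 each). The keratins KRT8 and KRT18 gave most of each sum, and the markers did not move together. GATA3 (73.8, 97.3 and 61.5 CPM), TFAP2C (257, 195 and 133 CPM) and TEAD4 (64.2, 70.9 and 49.8 CPM) averaged lowest in in vivo libraries. All the other markers of this list averaged highest there. The 8 stromal markers summed to 42.4 to 234 CPM in automatic libraries, 30.8 to 514 CPM in manual libraries and 0.0457 to 35.2 CPM in in vivo libraries, with COL3A1 and POSTN at 0 in every in vivo library. The 11 cumulus markers stayed between 3.70 and 88.4 CPM over all libraries, with FOXL2 at 0 throughout, and PTPRC, the defining leukocyte marker, was also at 0 throughout. The part of these cell types in the results below was not tested, and in whole embryos fewer cells of a type and less RNA per cell cannot be told apart.

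Cell cycle transcripts were detected in nearly every library. Of the 720 member values, 31 were 0, and CCND1 gave 10 of these. Apart from CCND1, 19 of the zeros fell in the 5 low-detection libraries and 2 in the other 10. Automatic 4 had 8 members at 0 and in vivo 2 had 6. There were 37 members with counts in all 15 libraries, and 45 had at least 10 counts in each of the 10 better detected libraries. The map of member levels by library shows these gaps as dark cells in single columns.

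**Figure D1:**
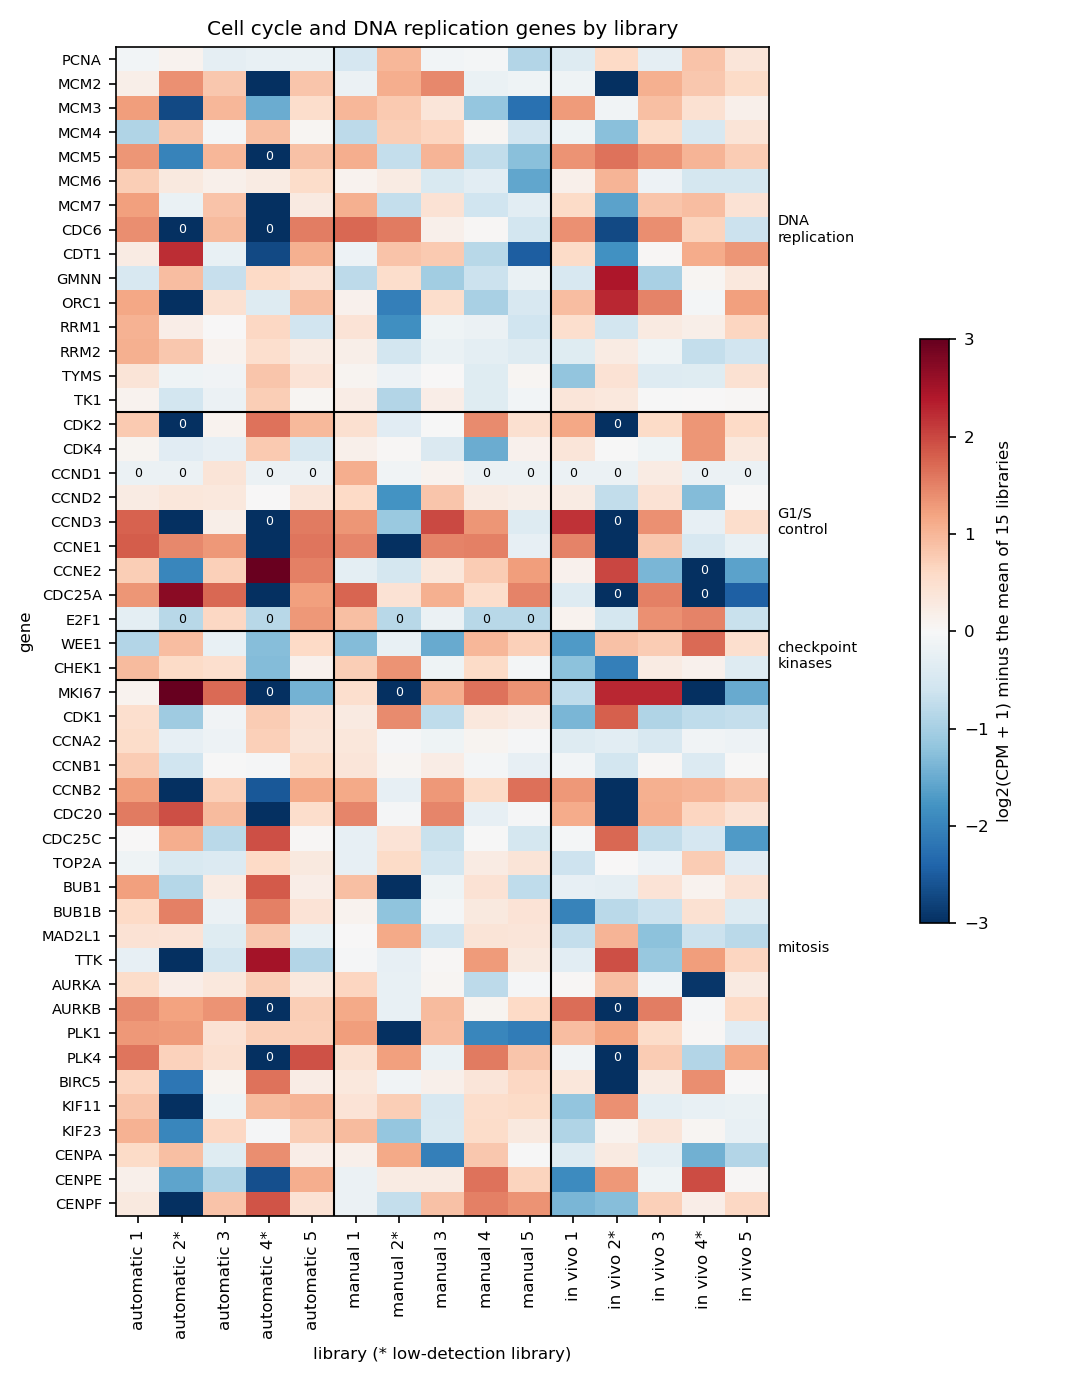
Level of the 48 genes (rows, by role) in each library (columns, automatic, manual, in vivo), as log2(CPM + 1) minus the gene's mean over the 15 libraries. A 0 marks a library with no counts and an asterisk a low-detection library; the columns of automatic 4 and in vivo 2 hold the most zeros, with 8 and 6.

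No member was called between any groups by edgeR's quasi-likelihood test at an adjusted p under 0.05, where p-values were adjusted over all 11578 genes tested. In automatic against manual libraries 0 of 47 members were called, with 0 genes called in all (0%). At an unadjusted p under 0.05 the count was 1 member, RRM2, beside 171 of all genes (1.48%). In in vitro against in vivo libraries, where the in vitro side is the mean of both denuded groups, 0 members were called, beside 2 genes in all (0.0173%). Unadjusted, 1 member, ORC1, passed there, beside 710 of all genes (6.13%). In automatic against in vivo libraries 0 members were called, beside 2 genes in all (0.0173%), and RRM2 and BUB1B passed unadjusted, beside 621 genes (5.36%). In manual against in vivo libraries 0 members and 0 genes in all (0%) were called, and ORC1 passed unadjusted, beside 392 genes (3.39%). These last comparisons use the same 5 in vivo libraries. DESeq2, limma-voom and voom with quality weights also called 0 members in each of the 4 comparisons.

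The ranges of automatic and manual libraries overlapped for every member, as did those of in vitro and in vivo libraries. Over all genes, every automatic library lay above every manual library for 16 genes (0.138%) and below for 61 (0.527%). Every in vitro library lay above every in vivo library for 23 genes (0.199%) and below for 32 (0.276%).

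A miss of the threshold does not show that levels were alike, and the intervals give the sizes these libraries allow. The 95% interval of the log2 fold change lay within 4-fold either way for 25 of 47 members in automatic against manual libraries, where 2776 of 11578 genes did so. In in vitro against in vivo libraries it did so for 30 of 47 members and 3101 of 11578 genes. The median coefficient of variation (SD over mean, within groups) was 60.4% over the 47 members, beside 84.4% over all genes tested. Members and all genes were not matched for level, in the intervals or in this spread, and the part of level in both was not tested. The members that varied least between libraries of a group were CCNA2 at 17.5%, CCNB1 at 23.3%, RRM2 at 25.3% and TK1 at 25.5%. Those that varied most were E2F1 at 137%, MKI67 at 106% and CCNE2 at 100%.

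**Figure D2:**
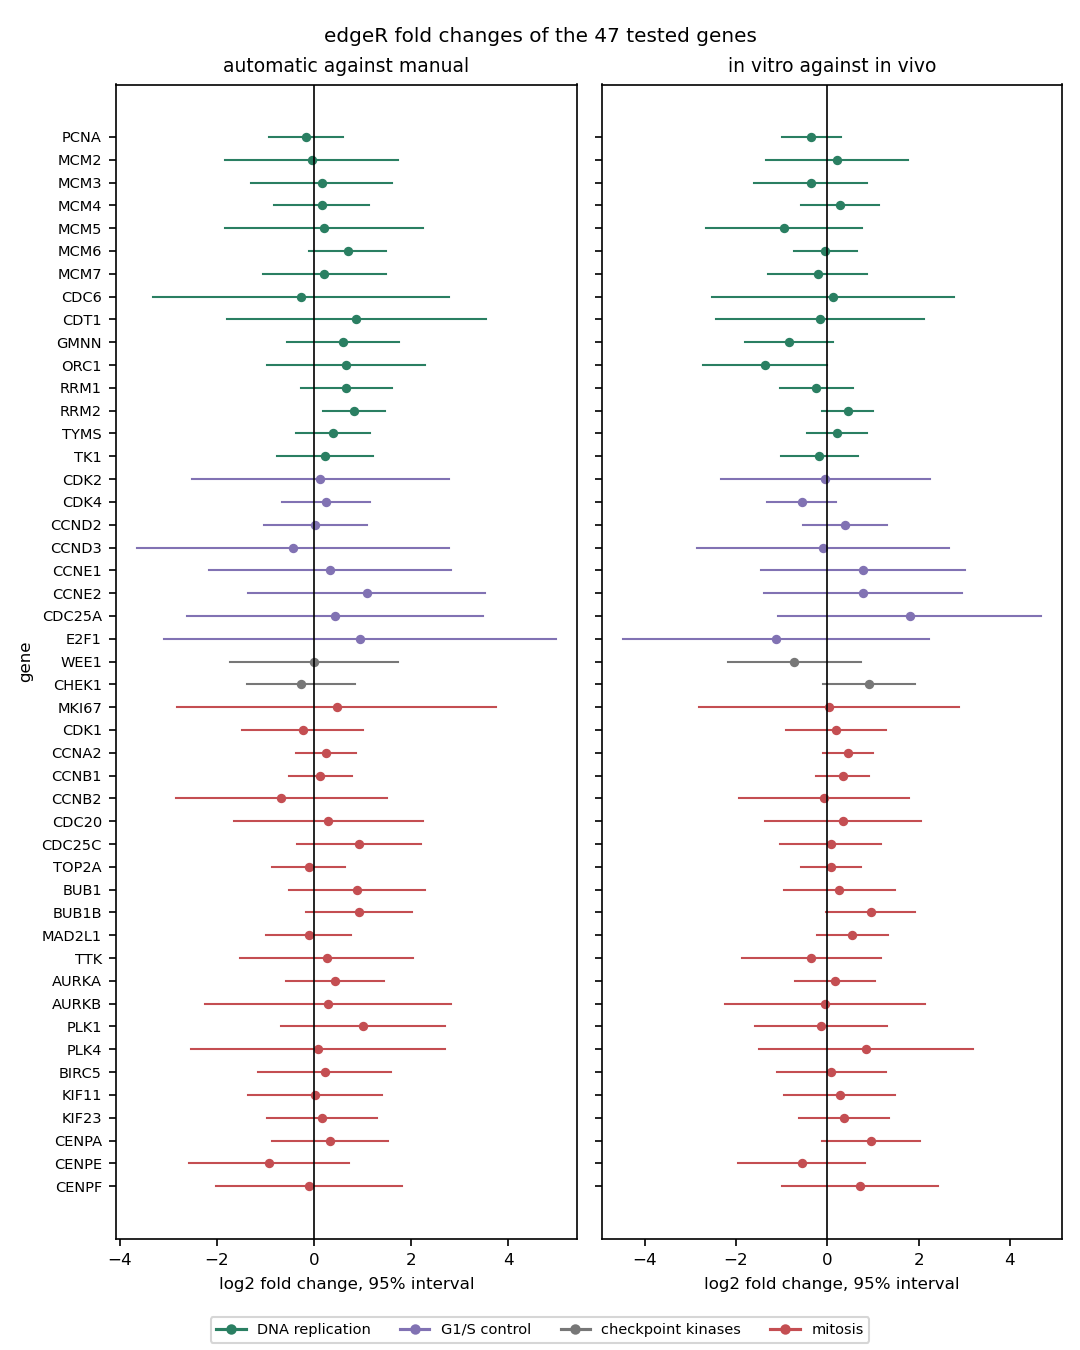
Log2 fold change of each of the 47 tested genes with its 95% interval from edgeR (points and lines), coloured by role, for automatic against manual libraries on the left and in vitro against in vivo libraries on the right. Positive values are higher in automatic or in in vitro libraries; RRM2 on the left and ORC1 on the right are the genes whose interval leaves out 0.

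Among the replication genes, RRM2 was the member that passed unadjusted in automatic against manual libraries. RRM2 and RRM1 form ribonucleotide reductase, which makes the deoxynucleotides for DNA synthesis. RRM2 had 755, 632, 387, 509 and 426 CPM in automatic libraries, 406, 245, 313, 294 and 276 CPM in manual libraries and 278, 428, 330.4, 216 and 241 CPM in in vivo libraries. Of the 5 automatic libraries, 4 lay above every manual library, and the fifth, automatic 3, lay under manual 1. The log2 fold change was 0.82 ± 0.30 (SE) in automatic against manual libraries (edgeR adjusted p = 0.9999) and 0.86 ± 0.30 in automatic against in vivo libraries (adjusted p = 0.693). It was 0.45 ± 0.27 in in vitro against in vivo libraries (adjusted p = 0.948), the 2 in vitro groups having averaged 542 ± 152 and 307 ± 61.1 CPM beside 299 ± 84.0 CPM in vivo (SD, n = 5 each). RRM1 averaged 148 ± 61.0 CPM in automatic, 92.9 ± 44.7 CPM in manual and 138 ± 39.1 CPM in in vivo libraries. Its log2 fold change was 0.67 ± 0.45 in automatic against manual and -0.57 ± 0.45 in manual against in vivo libraries, neither called by edgeR.

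ORC1, the largest subunit of the origin recognition complex, was the replication gene with the lowest in vitro levels relative to in vivo ones. It had 149.7, 0.974, 91.3, 50.2 and 124 CPM in automatic libraries, 72.8, 15.4, 95.7, 33.1 and 47.01 CPM in manual libraries and 127, 323, 189, 63.4 and 156 CPM in in vivo libraries. All 5 manual libraries lay under 4 of the 5 in vivo libraries, the exception being in vivo 4. The log2 fold change was -1.37 ± 0.65 in in vitro against in vivo libraries (edgeR adjusted p = 0.805). It was -1.04 ± 0.78 in automatic against in vivo and -1.70 ± 0.80 in manual against in vivo libraries (edgeR adjusted p = 0.9997 in the manual comparison). Without the low-detection libraries the value in automatic against in vivo libraries was -0.35. The lowest value came from automatic 2 and the highest from in vivo 2, both low-detection libraries.

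Geminin (GMNN), the inhibitor of CDT1, had fold changes against in vivo libraries that depended on 1 library. In automatic against manual libraries its log2 fold change was 0.60 ± 0.55, not called by edgeR. GMNN had 335, 884, 286, 701 and 626 CPM in automatic libraries, 270.4, 669, 227, 298 and 406 CPM in manual libraries and 334, 2493, 237, 487 and 578 CPM in in vivo libraries. The value of in vivo 2 lay far above all 14 others. With it, the log2 fold change was -0.84 ± 0.46 in in vitro against in vivo and -1.14 ± 0.55 in manual against in vivo libraries; without it, the in vitro against in vivo value was 0.17 ± 0.36, with the sign turned and an edgeR adjusted p = 0.9994, and the manual against in vivo value was -0.11 ± 0.40.

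The MCM helicase subunits differed in which libraries were high or low. MCM6 had 449, 329, 298, 319 and 390.1 CPM in automatic libraries, 288, 316, 194, 215 and 90.3 CPM in manual libraries and 294, 539, 240.1, 185 and 185 CPM in in vivo libraries. In 4 of 5 automatic libraries it lay above every manual library, with a log2 fold change of 0.69 ± 0.38 (edgeR adjusted p = 0.9999), while in vitro against in vivo gave -0.04 ± 0.33. MCM5 averaged 135 ± 116 CPM in automatic, 118 ± 86.2 CPM in manual and 245 ± 55.9 CPM in in vivo libraries (SD, n = 5 each), with a log2 fold change of -0.95 ± 0.82 in in vitro against in vivo libraries. It was 0 in automatic 4 and between 24.6 and 257 CPM in the rest of the in vitro libraries, against 176 to 321 CPM in vivo. MCM2 averaged 61.3 ± 40.2, 63.4 ± 36.8 and 53.5 ± 33.2 CPM in automatic, manual and in vivo libraries, and MCM4 averaged 149 ± 69.5, 134 ± 61.1 and 116 ± 51.7 CPM. MCM3 averaged 103 ± 80.9, 92.5 ± 64.5 and 126 ± 50.0 CPM in the same order of groups, and MCM7 averaged 239 ± 162, 207 ± 118 and 258 ± 117 CPM. The low-detection library automatic 4 held MCM2 at 0.995 CPM and MCM7 at 19.96 CPM, the lowest of all 15 libraries for each, while its MCM4 and MCM6 stood at 226 and 319 CPM.

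The loading factors of the helicase had low counts in several libraries. CDC6 averaged 15.7 ± 14.8 CPM in automatic, 18.8 ± 13.2 CPM in manual and 15.7 ± 12.4 CPM in in vivo libraries, and was 0 in automatic 2 and automatic 4. CDT1 averaged 12.0 ± 12.7, 6.54 ± 5.20 and 9.91 ± 6.49 CPM in automatic, manual and in vivo libraries. PCNA, the sliding clamp of the replication fork, averaged 270.0 ± 30.2 CPM in automatic, 305 ± 168 CPM in manual and 366 ± 131 CPM in in vivo libraries. Its log2 fold change of -0.44 ± 0.36 in automatic against in vivo libraries was not called (edgeR). Thymidylate synthase (TYMS) averaged 242 ± 69.9, 184 ± 23.0 and 181 ± 79.5 CPM in automatic, manual and in vivo libraries. Thymidine kinase TK1 averaged 67.2 ± 23.5, 57.3 ± 16.6 and 70.1 ± 8.82 CPM. For each of these genes the group means differed by less than the largest SD of a group. Only for CDC6 did they also differ by less than the smallest.

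By count, 12 of 15 replication genes had a positive log2 fold change in automatic against manual libraries, with a median of 0.23 beside -0.05 over all genes tested. In in vitro against in vivo libraries 5 were positive and 10 negative, with a median of -0.18 beside -0.04 over all genes. The median was 0.00 in automatic against in vivo and -0.32 in manual against in vivo libraries, beside -0.06 and -0.02 over all genes.

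**Figure D3:**
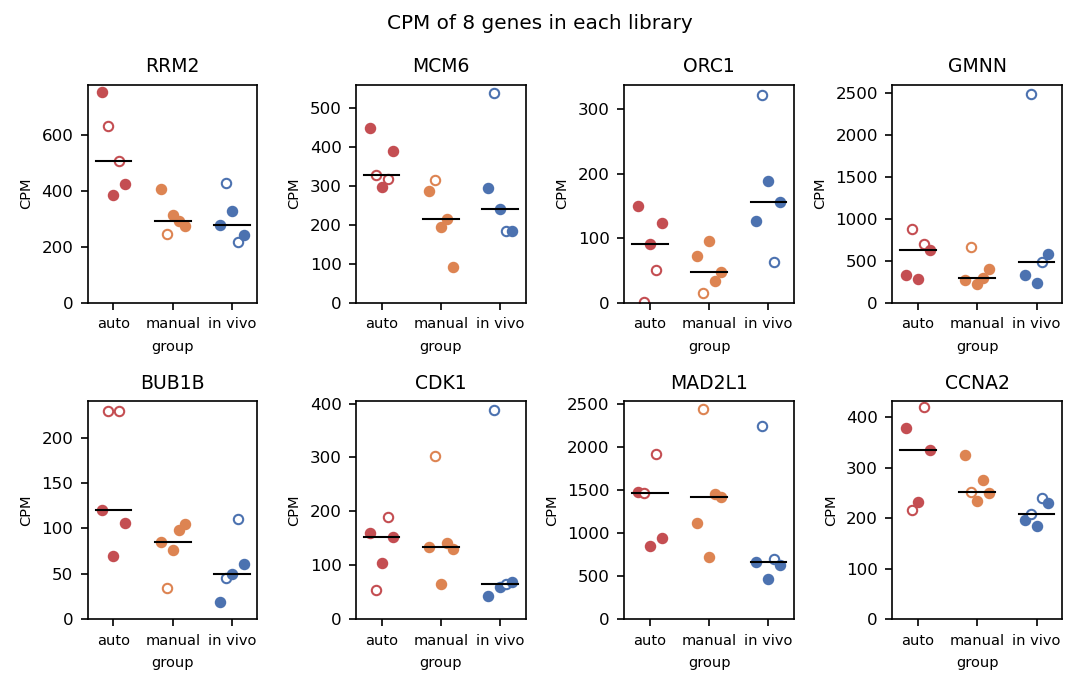
CPM of 8 genes in each library, in the order automatic, manual and in vivo on the horizontal axis of each panel. Open circles are low-detection libraries and the bar is the group's median; in vivo 2 is the isolated open circle at 2493 CPM for GMNN, 388 CPM for CDK1 and 2243 CPM for MAD2L1.

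The G1/S genes were the most uneven set, with a median coefficient of variation of 82.6% within groups. Cyclin D1 (CCND1) was at 0 in 10 libraries and reached 1.38 CPM at most. Cyclin D2 (CCND2) averaged 93.7 ± 9.10 CPM in automatic, 92.1 ± 44.5 CPM in manual and 71.0 ± 31.5 CPM in in vivo libraries (SD, n = 5 each), with counts in all of them. Cyclin D3 (CCND3) averaged 16.4 ± 17.8, 22.2 ± 16.4 and 20.4 ± 19.4 CPM and was 0 in automatic 4 and in vivo 2. The cyclin D partner CDK4 averaged 127 ± 50.6, 107 ± 39.8 and 172 ± 80.8 CPM in automatic, manual and in vivo libraries. Its log2 fold change was -0.56 ± 0.37 in in vitro against in vivo and -0.69 ± 0.43 in manual against in vivo libraries, neither called by edgeR. In vivo 4 held the highest CDK4 value, 312 CPM, with the other 4 in vivo libraries between 113 and 159 CPM. Without it the log2 fold changes of CDK4 were -0.21 in in vitro against in vivo and -0.35 in manual against in vivo libraries.

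Of the cyclin E genes, which partner CDK2 at the start of S phase, CCNE1 averaged 58.3 ± 34.1 CPM in automatic, 46.2 ± 32.7 CPM in manual and 30.0 ± 26.7 CPM in in vivo libraries. CCNE2 had 41.3, 5.53, 40.5, 198 and 71.1 CPM in automatic libraries, 19.8, 16.5, 30.9, 41.7 and 59.4 CPM in manual libraries and 26.5, 100.2, 8.86, 0 and 7.37 CPM in in vivo libraries. The lowest and highest values of the automatic and of the in vivo group came from low-detection libraries, and the log2 fold change of 1.08 ± 1.17 in automatic against manual libraries had an SE above its size. It was 0.24 without automatic 4. The value in in vitro against in vivo libraries was 0.78 ± 1.03 with in vivo 2 and 2.19 ± 1.12 without it. CDK2 averaged 36.8 ± 27.0, 33.7 ± 17.5 and 36.2 ± 22.9 CPM in automatic, manual and in vivo libraries. CDC25A, the phosphatase that activates CDK2, had 31.6, 83.1, 41.8, 0.111 and 29.1 CPM in automatic libraries, 42.5, 16.5, 26.2, 17.8 and 35.5 CPM in manual libraries and 8.90, 0, 35.7, 0 and 1.36 CPM in in vivo libraries. It lay under 10 CPM in 4 of 5 in vivo libraries and in 1 of 10 in vitro libraries, yet the log2 fold change of 2.01 ± 1.51 in automatic against in vivo libraries was not called by edgeR. That value ranged from 1.19 without the low-detection libraries to 4.45 with limma-voom. E2F1, a transcription factor for S-phase genes, reached no more than 3.36, 2.30 and 3.93 CPM in automatic, manual and in vivo libraries, too few counts for a comparison at this depth. Of the 8 G1/S genes tested, 7 were positive in automatic against manual and 4 in in vitro against in vivo libraries, with medians of 0.29 and 0.17.

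The checkpoint kinases leaned opposite ways in in vitro against in vivo libraries. CHEK1, which halts the cycle when replication stalls, had 159.8, 123, 118, 32.8 and 90.5 CPM in automatic libraries, 139.7, 214, 75.2, 124 and 79.2 CPM in manual libraries and 34.8, 19.3, 98.7, 90.1 and 63.1 CPM in in vivo libraries. The groups overlapped, and the log2 fold change was 0.91 ± 0.48 (edgeR adjusted p = 0.885). WEE1, the kinase that holds CDK1 inactive, averaged 23.8 ± 15.2, 23.9 ± 17.6 and 39.4 ± 24.7 CPM in automatic, manual and in vivo libraries, with a log2 fold change of -0.72 ± 0.70.

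Among the mitosis genes, the spindle checkpoint gene BUB1B passed unadjusted in automatic against in vivo libraries. BUB1B, which encodes the checkpoint protein BUBR1, had 119.7, 229.9, 70.1, 229.6 and 105 CPM in automatic libraries, 85.4, 33.7, 75.9, 98.1 and 105 CPM in manual libraries and 18.9, 44.8, 50.2, 109.9 and 60.7 CPM in in vivo libraries. Every automatic library lay above 4 of the 5 in vivo libraries, and the low-detection library in vivo 4 lay among them. The log2 fold change was 1.41 ± 0.53 in automatic against in vivo libraries (edgeR adjusted p = 0.760). It was 0.95 ± 0.47 in in vitro against in vivo and 0.92 ± 0.52 in automatic against manual libraries, neither called. The value in automatic against manual libraries was 0.13 ± 0.40 without the low-detection libraries.

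MAD2L1, whose product MAD2 inhibits CDC20 until chromosomes are attached, had 1474, 1465, 848, 1911 and 938 CPM in automatic libraries, 1114, 2434, 725, 1447 and 1423 CPM in manual libraries and 668, 2243, 471, 702 and 625.3 CPM in in vivo libraries. All 10 in vitro libraries lay above 4 of the 5 in vivo libraries, and in vivo 2 lay above 9 of the 10. The log2 fold change was 0.55 ± 0.37 in in vitro against in vivo libraries with in vivo 2 and 1.16 ± 0.31 without it, with edgeR adjusted p-values of 0.990 and 0.335. The value in manual against in vivo libraries was 0.60 ± 0.42 with in vivo 2 and 1.23 ± 0.34 without it.

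CDK1, the kinase that starts mitosis, showed the same split. It had 159, 53.3, 103, 190.1 and 152 CPM in automatic libraries, 134, 303, 65.7, 141 and 130.3 CPM in manual libraries and 42.6, 388, 59.1, 65.2 and 68.3 CPM in in vivo libraries. Of the 10 in vitro libraries, 8 had more CDK1 than any in vivo library but in vivo 2. The log2 fold change was 0.20 ± 0.52 with in vivo 2 and 1.28 ± 0.43 without it, and neither passed (edgeR adjusted p = 0.9993 and 0.535). The fold changes of MAD2L1 and CDK1 thus rested on whether in vivo 2, a low-detection library, was counted.

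Of the mitotic cyclins, CCNA2 and CCNB1 were among the steadiest members, while CCNB2 had a coefficient of variation of 63.3%. Cyclin A2 (CCNA2), which acts in S phase and G2, had 378, 216, 231, 420.0 and 334 CPM in automatic libraries, 325, 252, 234, 275 and 250.4 CPM in manual libraries and 197, 208, 184, 239.6 and 231 CPM in in vivo libraries. Its log2 fold change was 0.45 ± 0.26 in in vitro against in vivo libraries (edgeR adjusted p = 0.939), 0.58 ± 0.29 in automatic against in vivo and 0.33 ± 0.29 in manual against in vivo libraries. Cyclin B1 (CCNB1) averaged 351 ± 127 CPM in automatic, 320.4 ± 53.2 CPM in manual and 266 ± 45.5 CPM in in vivo libraries, with a log2 fold change of 0.33 ± 0.27 in in vitro against in vivo libraries. Cyclin B2 (CCNB2) averaged 47.5 ± 41.9, 75.7 ± 33.7 and 63.1 ± 36.2 CPM in automatic, manual and in vivo libraries, and was under 6 CPM in automatic 2, automatic 4 and in vivo 2.

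CENPA, the histone that marks centromeres, averaged 109 ± 49.5 CPM in automatic, 86.9 ± 52.8 CPM in manual and 50.5 ± 22.1 CPM in in vivo libraries (SD, n = 5 each). It had 103, 129, 53.3, 182 and 78.5 CPM in automatic libraries, 76.2, 153, 15.7, 121 and 67.7 CPM in manual libraries and 51.9, 83.2, 56.2, 24.8 and 36.6 CPM in in vivo libraries. The log2 fold change was 0.95 ± 0.51 in in vitro against in vivo libraries (edgeR adjusted p = 0.905), 1.11 ± 0.57 in automatic against in vivo and 0.78 ± 0.57 in manual against in vivo libraries. The kinetochore genes CENPE and CENPF averaged 33.7 ± 32.4 and 68.4 ± 56.9 CPM in automatic, 64.0 ± 35.9 and 73.6 ± 41.9 CPM in manual and 68.4 ± 59.0 and 43.0 ± 25.8 CPM in in vivo libraries.

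The other spindle checkpoint members, BUB1 and TTK, were more variable. BUB1, a kinase of the kinetochore, averaged 107 ± 74.0 CPM in automatic, 58.3 ± 42.3 CPM in manual and 65.9 ± 15.5 CPM in in vivo libraries, with a log2 fold change of 0.88 ± 0.67 in automatic against manual libraries. It was 0.43 ± 0.43 without the low-detection libraries. TTK, the kinase that starts the checkpoint, averaged 113 ± 169.8, 94.5 ± 47.1 and 132 ± 99.2 CPM in automatic, manual and in vivo libraries, of which automatic 4 alone gave 414 CPM, and its log2 fold change was -0.35 ± 0.73 in in vitro against in vivo libraries. CDC20, which switches on the anaphase-promoting complex, averaged 249.9 ± 179, 204 ± 124 and 178 ± 108 CPM, and was under 2 CPM in automatic 4 and in vivo 2. CDC25C, the phosphatase that activates CDK1, had 108, 228, 60.5, 405 and 109 CPM in automatic libraries, 89.0, 142, 66.8, 105 and 73.7 CPM in manual libraries and 101, 354, 63.5, 74.9 and 32.1 CPM in in vivo libraries. Its highest values in every group came from low-detection libraries, and the log2 fold change was 0.93 ± 0.61 in automatic against manual libraries. It was 0.16 ± 0.41 without the low-detection libraries, 0.42 without automatic 4 and 0.07 by voom with quality weights. CDC25C in in vitro against in vivo libraries gave 0.07 ± 0.52 with in vivo 2 and 0.95 ± 0.47 without it.

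Among the mitotic kinases, AURKA averaged 266 ± 43.0 CPM in automatic, 198 ± 71.0 CPM in manual and 204 ± 123 CPM in in vivo libraries. AURKB, the kinase of the chromosomal passenger complex, averaged 82.6 ± 49.4, 67.9 ± 25.8 and 77.5 ± 60.6 CPM and was 0 in automatic 4 and in vivo 2. PLK1, which acts at centrosomes and kinetochores, averaged 122 ± 32.7, 60.6 ± 70.1 and 94.6 ± 39.3 CPM in automatic, manual and in vivo libraries. The manual libraries split into 151 and 121 CPM in manual 1 and manual 3 and 1.12 to 15.5 CPM in the remaining 3, and the log2 fold change of 1.004 ± 0.81 in automatic against manual libraries was not called (edgeR). PLK4, which starts centriole duplication, averaged 51.7 ± 39.1, 49.0 ± 21.8 and 28.0 ± 23.4 CPM, and was 0 in automatic 4 and in vivo 2.

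Topoisomerase TOP2A, which untangles sister chromatids, averaged 250.2 ± 82.6 CPM in automatic, 269.6 ± 81.9 CPM in manual and 246 ± 99.8 CPM in in vivo libraries, differences smaller than the spread within any group. BIRC5 (survivin), a chromosomal passenger protein, averaged 194 ± 145, 166 ± 31.0 and 169 ± 126 CPM in automatic, manual and in vivo libraries. The spindle motor KIF11 averaged 115 ± 72.1, 113 ± 31.2 and 94.5 ± 72.1 CPM, and the log2 fold change of KIF11 in in vitro against in vivo libraries was 0.27 ± 0.58 with in vivo 2 and 0.85 ± 0.59 without it. The cytokinesis motor KIF23 averaged 112 ± 60.5, 99.4 ± 50.5 and 81.9 ± 24.0 CPM. MKI67, the gene of the Ki-67 proliferation antigen, ranged from 0 to 87.6 CPM in automatic, 0 to 33.7 CPM in manual and 0.183 to 52.4 CPM in in vivo libraries, a spread within each group too wide for a comparison.

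By count, 17 of 22 mitosis genes had a positive log2 fold change in in vitro against in vivo libraries, with a median of 0.23 beside -0.04 over all genes tested. In automatic against in vivo libraries 19 of 22 were positive, with a median of 0.39, and in manual against in vivo libraries 13 of 22, with a median of 0.23. In automatic against manual libraries 16 of 22 were positive, with a median of 0.23, but limma-voom gave 9 of 22 and a median of -0.12, with the sign turned. Over all members, 35 of 47 were positive in automatic against manual and 27 of 47 in in vitro against in vivo libraries; limma-voom gave 24 and 28 of 47. With library size alone as the scaling, the median of all genes in in vitro against in vivo libraries was 0.10 in place of -0.04, and 20 of 22 mitosis and 7 of 15 replication genes were then positive.

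The replication and mitosis members thus leaned apart in in vitro against in vivo libraries. The gap between them could be read within each library, where most of the scaling cancels. Each gene's log2 CPM was centred on its mean over the 15 libraries and averaged over the role. The replication average minus the mitosis average ranged from -1.11 to 0.07 in automatic libraries, -1.19 to 0.61 in manual libraries and 0.25 to 0.80 in in vivo libraries. It averaged -0.22 ± 0.51 in automatic, -0.30 ± 0.74 in manual and 0.52 ± 0.21 in in vivo libraries (SD, n = 5 each). Of the 10 in vitro libraries, 9 lay below every in vivo library, and the exception was the low-detection library manual 2 at 0.61. No test was made of this difference, since it was built from genes chosen with results of these libraries known. The parts moved differently. The replication average was -0.20 ± 1.08 in automatic, -0.09 ± 0.50 in manual and 0.29 ± 0.28 in in vivo libraries. The mitosis average was 0.01 ± 0.72, 0.21 ± 0.45 and -0.23 ± 0.46. In both averages automatic lay below manual, although 12 of 15 replication and 16 of 22 mitosis genes were positive in automatic against manual libraries. Without the low-detection libraries this order turned. Replication then averaged 0.52 ± 0.17 in 3 automatic and -0.13 ± 0.56 in 4 manual libraries. Mitosis averaged 0.52 ± 0.26 and 0.40 ± 0.18 in the same libraries. Detection moved with both averages, more so with mitosis than with replication. Mitosis stood at -0.63 ± 0.32 in the 5 low-detection libraries and 0.32 ± 0.30 in the other 10. The G1/S control average moved further than either, with -1.81 ± 0.92 and 0.90 ± 0.55 in the same sets. Replication stood at -0.47 ± 0.87 and 0.23 ± 0.46 in the same sets. Summed CPM of the mitosis and of the replication genes moved the other way. Mitosis genes summed to 4603 ± 1049 CPM in the low-detection libraries and 3598 ± 763 CPM in the other 10. Replication genes summed to 3277 ± 1063 and 2555 ± 548 CPM in the same sets. The part of detection in the group difference was not tested.

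**Figure D4:**
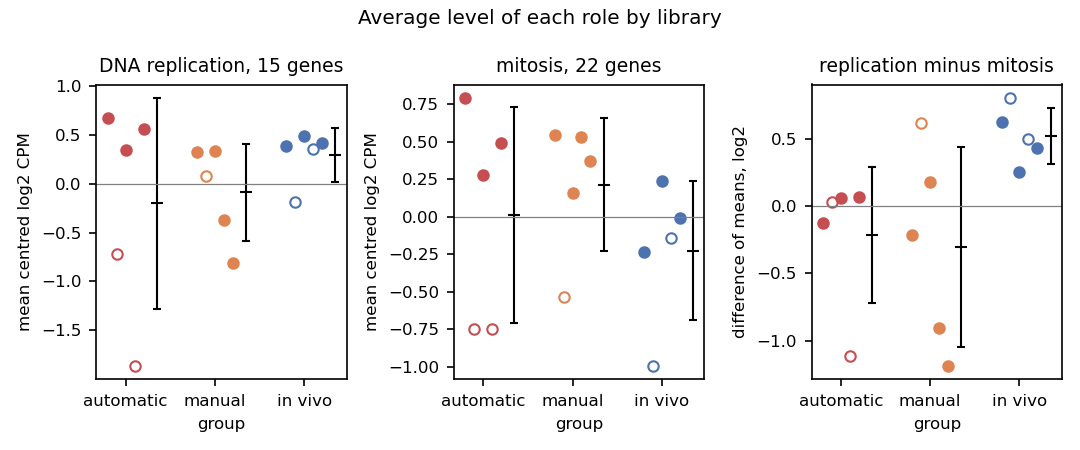
Average centred log2 CPM of the replication genes (left) and the mitosis genes (middle) and their difference (right) in each library, in the order automatic, manual and in vivo. Open circles are low-detection libraries and the bars are mean ± SD of the 5 libraries; on the right, 9 of 10 in vitro libraries lie below all in vivo libraries, which span 0.25 to 0.80.

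Without the 5 low-detection libraries (3 automatic, 4 manual and 3 in vivo libraries left), the lean of the mitosis genes was more even. Of 22 mitosis genes, 21 had a positive log2 fold change in in vitro against in vivo libraries, with a median of 0.38 beside -0.01 over the 12329 genes then tested. Of 15 replication genes, 12 were negative, with a median of -0.14. The difference between both averages was -0.30 ± 0.53 in the 7 in vitro libraries and 0.43 ± 0.19 in the 3 in vivo libraries (SD), and none of the 7 overlapped with the 3. CDK1 had a log2 fold change of 1.18 ± 0.33 (edgeR adjusted p = 0.339), MAD2L1 0.95 ± 0.29 (adjusted p = 0.411), BUB1B 1.14 ± 0.38 and KIF11 1.003 ± 0.37. The 7 in vitro libraries were then all higher than the 3 in vivo ones for 3 members, MAD2L1, BUB1B and CCNA2, beside 242 of the 12329 genes (1.96%). ORC1 had a log2 fold change of -0.85 ± 0.33. In automatic against manual libraries, 14 of 15 replication genes were positive with a median of 0.57, among them MCM6 at 0.96 ± 0.36, ORC1 at 0.99 ± 0.37 and RRM2 at 0.72 ± 0.29, and TTK was at -1.04 ± 0.48. BUB1B and CDC25C, at 0.92 and 0.93 over all libraries, were then at 0.13 ± 0.40 and 0.16 ± 0.41. None of the 48 members tested there was called by edgeR in any of the 4 comparisons. Over all genes, 1 was called in automatic against manual (0.00811%), 7 in in vitro against in vivo (0.0568%), 9 in automatic against in vivo (0.073%) and 3 in manual against in vivo libraries (0.0243%).

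Wider sets of genes around the same machinery were read in the same fit. Of 48 further replication genes, 22 had a positive and 26 a negative log2 fold change in in vitro against in vivo libraries, with a median of -0.09. Of 65 further mitosis genes tested, 35 were positive and 30 negative, with a median of 0.12. That was 45.8% positive for replication and 53.8% for mitosis, beside 48.2% over all genes tested, whose median was -0.04. The lean of the members was thus smaller in these wider sets. The 13 genes of the anaphase-promoting complex and its regulators split 8 to 5, with a median of 0.20, and the 18 CDK inhibitors and pocket protein genes split 11 to 7, with a median of 0.10. Of the 7 cell cycle genes known mainly from the egg, 5 were tested and split 3 to 2, also with a median of 0.10. None of these genes was called by edgeR in any comparison.

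The single genes of these sets with the smallest p-values were spread over several steps of the cycle. ECT2, the exchange factor that directs the cleavage furrow, averaged 134 CPM in in vitro and 55.1 CPM in in vivo libraries, a log2 fold change of 1.27 ± 0.41 (edgeR adjusted p = 0.553). It was 1.42 ± 0.45 in manual against in vivo and 1.12 ± 0.45 in automatic against in vivo libraries, and every automatic library lay above every in vivo library, as was the case for 106 of all 11578 genes (0.916%). RACGAP1, its partner at the central spindle, averaged 134 CPM in automatic and 53.6 CPM in in vivo libraries, a log2 fold change of 1.32 ± 0.50 (adjusted p = 0.763). SLBP, which binds histone mRNAs in S phase, averaged 230.2 CPM in automatic and 95.8 CPM in in vivo libraries (1.26 ± 0.43 on the log2 scale), and it was another of those 106 genes. RFC1 is the large subunit of the clamp loader that places PCNA on DNA. It averaged 54.7 CPM in in vitro and 169 CPM in in vivo libraries, a log2 fold change of -1.64 ± 0.59 (edgeR adjusted p = 0.632). Every in vitro library lay below every in vivo library for RFC1, as was the case for 32 of all 11578 genes (0.276%). RBL2, which encodes the pocket protein p130, averaged 7.57 CPM in in vitro and 51.4 CPM in in vivo libraries, a log2 fold change of -3.0 ± 1.42 (adjusted p = 0.805) whose sign turned without the low-detection libraries.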

How the data were processed

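Poly(A) RNA was measured in 15 libraries, 5 per group, grouped by the labels. The authors deposited estimated counts per gene, and the submitters' processing notes name FastQC, fastp and kallisto; the sources used here give no versions, genome build or annotation. The deposited values were whole numbers, so rounding changed 0 of them, and 1 line without a gene name, which held no values, was left out. The library kit attached molecular identifiers, per the labels' protocols; the sources used here do not say whether counting used them. All 48 member symbols matched the RefSeq gene table of ARS-UCD2.0, as did 17059 of the 17259 symbols in the table.

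Genes were filtered with filterByExpr, scaled by TMM and fitted with edgeR 4.0.16 (R 4.3.3) in 1 model over all 15 libraries, with the robust quasi-likelihood F test, 4 contrasts and Benjamini-Hochberg adjustment over 11578 genes. The SE is the log2 fold change over the root of F. CPM use TMM-scaled library sizes, and the role averages use log2 CPM with a prior count of 2. Gene lengths were not used, so levels are not compared between genes. Alternatives were library size alone, no filter, a filter at 1 CPM in 5 libraries, DESeq2 1.42.0, limma-voom (limma 3.58.1), voom with quality weights, the replicate number as a block, a covariate for detected genes per library, and leaving out the low-detection libraries or each library. The fit was run on simulated data, with a pass required only at a smaller spread than that of these libraries. That run therefore does not bear on the absence of called members. The members, their roles and the wider lists were chosen with earlier results of these data known. Fold changes are given for members with an unadjusted p under 0.05 and in any case for the 3 smallest p-values in replication and in mitosis and the smallest in G1/S control; other values were chosen after they were seen. No 2 libraries of the same group agreed within sampling noise (the smallest chi-square per degree of freedom was 184).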

Additional observations from a re-analysis of the deposited data

Results flagged for a closer look

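For each member and group of 5 libraries, a library was picked out when its gap to the nearest of the others exceeded 0.71 of the group's range (Dixon's 95% bound). Of 144 sets of gene and group, 16 had such a library, and 7 of the 16 came from in vivo 2. The bound assumes normally distributed values, which CPM with zeros need not be. No share over all genes was taken, so the 16 sets are not read as an excess.

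In vivo 2 was the highest of its group for GMNN at 2493 CPM, MAD2L1 at 2243 CPM, CDK1 at 388 CPM, CDC25C at 354 CPM, KIF11 at 220.5 CPM and CCNE2 at 100.2 CPM, and the lowest for CCNB2 at 0.230 CPM. The same library had 7293 genes with 10 or more counts, a TMM factor of 0.543, the lowest of all 15, and 6 members at 0. In in vitro against in vivo libraries, CCNB2 had a log2 fold change of -0.07 ± 0.89 with it and -0.38 ± 0.74 without it; the values of the other 6 genes with and without it stand with each gene.

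PCNA reached 591 CPM in manual 2, against 161 to 282 CPM in the rest of that group. CDK4 reached 312 CPM in in vivo 4. TTK reached 414 CPM in automatic 4 and 177 CPM in manual 4. CDC25A reached 35.7 CPM in in vivo 3. E2F1 reached 2.30 CPM in manual 1. CCND1 was picked out in every group at levels near 0, with 0.484 CPM in automatic 3, 1.38 CPM in manual 1 and 0.348 CPM in in vivo 3.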

How the results depend on the processing

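No member was called in any of the 4 comparisons under any of the 25 alternatives; the smallest adjusted p of a member was 0.070, with voom with quality weights in in vitro against in vivo libraries. The number of genes called overall moved. In automatic against in vivo libraries (2 genes) it was 0 with library size alone, 1 with no filter, 87 with DESeq2, 9 with limma-voom, 95 with quality weights, 9 without the low-detection libraries, and 0 to 4 leaving out each library. In in vitro against in vivo libraries (2 genes) it was 0, 87, 15 and 107 with library size alone, DESeq2, limma-voom and quality weights, 7 without the low-detection libraries, 7 with detected genes as a covariate, and 0 to 7 leaving out each library. In manual against in vivo libraries (0 genes) it was 44, 1 and 2 with DESeq2, limma-voom and quality weights and 3 without the low-detection libraries. In automatic against manual libraries (0 genes) it was 9 with DESeq2, 1 with quality weights and 1 without the low-detection libraries. The replicate block called 7 genes in automatic against in vivo, 8 in in vitro against in vivo and 1 in manual against in vivo libraries, and 0 members. The labels do not say that a number pairs libraries: deviations of same-numbered libraries of different groups correlated between 0.0014 and 0.38 (median 0.12), those of differently numbered ones between -0.28 and 0.37 (median -0.03), and 1 of 15 libraries correlated best with its own number in both other groups. The cause of these shifts was not tested. Role medians that turned sign were those of mitosis (-0.12) and G1/S control (-0.01) in automatic against manual and of G1/S control (-0.04) in automatic against in vivo libraries, all with limma-voom, and of G1/S control in in vitro against in vivo libraries and in automatic against in vivo libraries without in vivo 2 (-0.04 and -0.01); the replication median in automatic against in vivo libraries, 0.00, ranged from -0.19 to 0.16. The in vitro against in vivo fold change of GMNN turned to 0.17 without in vivo 2 (-1.07 to 0.17 leaving out each library), and that of RBL2 to 1.33 with quality weights and 0.54 without the low-detection libraries. At this depth 33 of 48 members had at least 10 counts in every library.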
